A study of Arabidopsis thaliana with 22 samples.

Results

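The xylem secondary wall genes of Arabidopsis thaliana described here are 35 of the 33323 genes in the deposited count table. They were listed by name and function and comprise 9 NAC transcription factors, 7 MYB and homeobox factors, 5 genes of secondary wall cellulose, 9 genes of xylan, 2 vessel proteases and 3 other wall-associated proteins. The NAC, MYB and homeobox factors, 16 in all, are called regulators, and the 14 cellulose and xylan genes are called wall synthesis genes. Of the 35, 32 passed the filter on low counts and were among the 21683 genes tested, while SND1, NST1 and NST2 did not pass.

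The libraries are bulk mRNA-seq of upper primary roots from 14-day-old seedlings, either Col-0 (WT) or a myb67 mutant in the Col-0 background, named myb67-1 in the growth protocol. The study title names MYB67, a MYB transcription factor, as a regulator of maturation of the phellem, the outer protective tissue of the thickening root. Seeds of both genotypes were sown together on Murashige and Skoog medium, 1.5 cm of mature root below the hypocotyl was taken without lateral roots, and each biological replicate pooled about 40 untreated seedlings. Experiment 1 holds 6 WT and 6 myb67 libraries, and experiment 2 holds 5 and 5.

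Water-conducting vessels and fibres of the xylem lay down a thick secondary wall of cellulose, xylan and lignin inside the primary wall. In Arabidopsis, NAC factors of the VND type switch on vessel formation and those of the NST and SND1 type switch on fibre walls, both acting through MYB46 and MYB83 on further MYB factors and on the wall enzymes. Vessel cells then die and are cleared by proteases, so that the wall remains as an open tube.

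Libraries of experiment 1 held between 3705515 and 17727642 counts, and those of experiment 2 between 23190477 and 32091009. The shallowest library, WT replicate 1 of experiment 1, also had the lowest TMM scaling factor, 0.709, against 0.982 to 1.05 in the other libraries. The MYB67 transcript was higher in every library labelled myb67 than in every WT library of its experiment, with 11.5 ± 1.66 CPM (TMM-scaled; SD, n = 6) against 6.58 ± 0.437 in WT of experiment 1 and 18.0 ± 3.68 against 10.6 ± 2.79 (n = 5) in experiment 2. Reads counted along a gene cannot tell a working from a disrupted allele, so the label could not be checked this way. Photosynthesis gene levels summed over 5 markers were 473 and 835 CPM in WT replicates 3 and 6 of experiment 1 and 79.4 to 114 in its other libraries, and without those 2 libraries, too, 0 of the 32 genes were called between genotypes. The summed level of 5 endodermis and phellem markers was 448 to 757 CPM in WT and 566 to 638 in libraries labelled myb67 of experiment 1, and 355 to 529 and 512 to 631 in experiment 2. The part of the endodermis and phellem markers in the results was not tested. Reads of 10 of the 35 genes, among them VND5, VND6, CESA4, CESA7, CESA8, FRA8 and XCP1, may be mixed with those of an overlapping annotated gene. VND5 and CESA4 each overlap a gene on the same strand. The other overlaps are on the opposite strand, and nothing in the sources used here states how strand was handled. In whole root tissue, fewer xylem cells and less RNA per xylem cell cannot be told apart.

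Levels of the 32 genes per kilobase of exon spanned a wide range in WT, and the wall synthesis genes stood well above the regulators. In WT of experiment 1 the median was 12.7 CPM per kilobase over the 14 wall synthesis genes and 2.1 over the 13 regulators tested, a ratio of 6.06. The ratio was 5.92 in WT of experiment 2, and 6.12 and 5.17 in the libraries labelled myb67 of experiments 1 and 2. Over 21600 tested genes with a length, the median was 9.73 CPM per kilobase in WT of experiment 1.

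The highest levels belonged to the 2 papain-like proteases that clear the contents of dying vessel cells, XCP1 (AT4G35350) with 65.2 ± 4.69 CPM per kilobase and XCP2 (AT1G20850) with 53.1 ± 2.22 (n = 6, WT of experiment 1). Next came GXMT1, which methylates the glucuronic acid side chains of xylan, with 41.1 ± 2.50, and FRA8, a glycosyltransferase needed for normal xylan, with 36.6 ± 6.23. The values of GXMT1 and FRA8 lay within the summed spread of the 2 genes. KNAT7, a homeobox factor of the wall network, was the regulator of highest level, with 33.5 ± 1.11 CPM per kilobase. Its level exceeded that of the cellulose synthase genes CESA4 (19.2 ± 0.854), CESA7 (13.4 ± 2.43) and CESA8 (12 ± 0.977).

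Among the cellulose synthases, whose products work together in 1 complex in the secondary wall, CESA7 and CESA8 did not differ beyond their spread in WT of experiment 1. In WT of experiment 2 they lay further apart, at 19.8 ± 1.55 and 16.1 ± 1.64 CPM per kilobase (n = 5). Of the regulators, MYB63, an activator of lignin genes, followed KNAT7 with 8.19 ± 0.226 CPM per kilobase in WT of experiment 1. All other regulators tested had means from 1.11 (MYB83) to 3.72 (VND4) in WT of experiment 1. Within that group the vessel switches VND6 (2.12 ± 0.404) and VND7 (1.64 ± 0.284) lay close together, and so did MYB85 (1.46 ± 0.495) and MYB103 (1.45 ± 0.342).

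**Figure D1:**
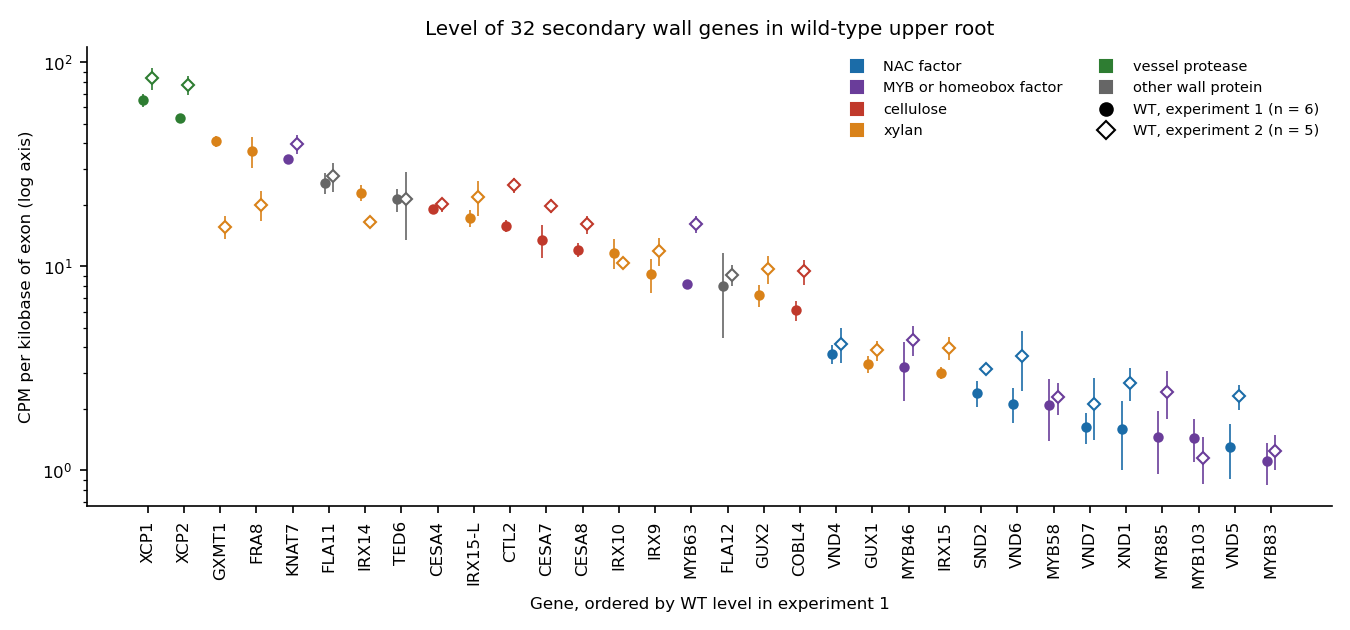
Mean level of the 32 tested genes in WT upper root, in CPM per kilobase of exon on a log axis, with filled circles for experiment 1 (n = 6), open diamonds for experiment 2 (n = 5) and bars of 1 SD. Proteases lie at the left, most regulators at the right below 5 CPM per kilobase, and KNAT7 is the regulator at 33.5 in experiment 1.

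The 3 NAC factors left out of the tests are the switches of fibre and endothecium walls. Counts per library were 0 to 5 for SND1, 0 to 10 for NST1 and 0 to 8 for NST2. NST2 was at 0 in all 12 libraries of experiment 1, where 3 counts, the limit that a count of 0 allows, correspond to 1.14 TMM-scaled CPM in the library of smallest scaled total, WT replicate 1, and to 0.168 in that of the largest. These limits cover counting error only. By contrast, VND6 and VND7 were counted in all 22 libraries, with at least 9.5 and 5 counts.

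Between the WT groups of the 2 experiments, 9 of the 32 genes lay wholly higher in experiment 2, 3 lay wholly lower and 20 overlapped. Over all tested genes, 26.1% lay wholly higher and 24.8% wholly lower. The median ratio of experiment 2 over experiment 1 was 1.29 for the 32 genes and 1.03 for all genes. MYB63 stood at 12 ± 0.332 CPM (SD, n = 6) in experiment 1 and 23.5 ± 2.21 (n = 5) in experiment 2, and CTL2, a chitinase-like protein of cellulose deposition, at 25.4 ± 1.66 and 40.4 ± 3.36. GXMT1 stood at 61.8 ± 3.75 CPM in experiment 1 and 23.5 ± 3.13 in experiment 2, FRA8 at 68.4 ± 11.6 and 37.3 ± 6.17, and IRX14, a xylan backbone glycosyltransferase, at 55.8 ± 5.09 and 40.1 ± 1.06. No test was made, because growth, depth and counting of the experiments cannot be told apart.

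Upstream sequence was read from RefSeq TAIR10.1 for the 250 bases before each annotated start, on both strands, for 2 elements known from xylem promoters. The first is the tracheary element-regulating element, searched as a pattern of 11 letters of which 2 are free. It was present upstream of 3 of the 35 genes, CESA4, XCP1 and FLA11, or 8.57%, and upstream of 101 of 27443 genes, or 0.368%. Element and genes were both chosen for a known link to xylem, so these shares are no independent comparison, and their difference was not tested. FLA11 encodes a fasciclin-like arabinogalactan protein of secondary walls. The 3 sites are shown with the element in capitals because they are the only matches among the genes described, and they lie 20, 75 and 204 bases before the starts of CESA4, XCP1 and FLA11.
CESA4, chr5:17714360-17714389, plus strand: tacataataaCTTGAAAGCTActctaagtt
XCP1, chr4:16810398-16810427, plus strand: ttgtctttgCTTCAAAGCCAatcctatgag
FLA11, chr5:753841-753870, minus strand: aaactctccCTTCAAAGCAAtgtctctcct
The second element, to which MYB46 and MYB83 bind, was searched as 8 words of 7 letters. It was present upstream of 11 of the 35 genes, or 31.4%, against 29.4% of all genes, with 2 of the 16 regulators and 7 of the 14 wall synthesis genes among them. By word, ACCTAAT was found upstream of 4 of the 35 genes and 4.35% of all, while ACCAAAC was found upstream of 3 of them and 8.29% of all. Single genes had the word ACCAAAT (10.7% of all genes), the word ACCAACC (2.69%), the word ACCAACT (3.69%) and the word ACCTACT (1.45%). None of the 35 had the word ACCTAAC, against 2.46% of all genes, or the word ACCTACC, against 1.16%. XCP1, the gene of highest level, and MYB83, the regulator of highest correlation with CESA7, are shown whole, with the first element in capitals for XCP1 and a reverse-strand match of the second element, ACCAACC, in capitals for MYB83.
XCP1, chr4:16810232-16810481, plus strand: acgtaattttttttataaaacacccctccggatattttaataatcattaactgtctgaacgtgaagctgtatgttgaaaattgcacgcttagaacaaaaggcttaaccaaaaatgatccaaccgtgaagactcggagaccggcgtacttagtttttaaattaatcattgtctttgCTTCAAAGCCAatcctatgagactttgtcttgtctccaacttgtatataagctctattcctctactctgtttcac
MYB83, chr3:2578277-2578526, minus strand: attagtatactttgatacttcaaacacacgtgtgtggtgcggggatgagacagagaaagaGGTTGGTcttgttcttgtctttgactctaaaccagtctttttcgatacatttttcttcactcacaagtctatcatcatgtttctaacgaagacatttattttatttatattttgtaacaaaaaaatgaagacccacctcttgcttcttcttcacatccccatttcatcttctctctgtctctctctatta
A match describes these letters only, and the windows of CESA4 and FLA11 each overlap 1 other annotated gene.

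None of the 32 genes was called between the genotypes in the main test, which does not use the replicate numbers. A gene was called where the quasi-likelihood test of edgeR gave p under 0.05 after Benjamini-Hochberg adjustment across every gene tested. Over both experiments 0 of 32 were called, against 1.5% of all genes (0.816% higher, 0.687% lower). In experiment 1 the count was 0, against 0.623% (0.314% higher, 0.309% lower), and in experiment 2 it was 0, against 1.33% (0.623% higher, 0.706% lower). For the difference between the experiments it was 0, against 0.0692% (0.0507% higher, 0.0184% lower). At an unadjusted p under 0.05 the counts were 3, 2, 4 and 2 of 32, against 7.31%, 8.65%, 8.25% and 8.81% of all genes. DESeq2 called 1 gene, MYB85, over both experiments, against 1.96% of all genes, and 0 in the other comparisons, and limma-voom called 0 in all 4. With the replicate number as a block, which only experiment 2 supports, edgeR called 1 gene, GXMT1, in experiment 2, against 4.52% of all genes. In neither experiment did any of the 32 genes have WT and myb67 libraries without overlap, against 1.13% of all genes in experiment 1 and 1.84% in experiment 2.

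Differences were small for nearly all of them. The log2 fold change, libraries labelled myb67 over WT, had a median of 0.07 over the 32 genes and 0.00 over all genes in both experiments together, and it was above 0 for 25 of the 32 and for 50.8% of all genes. It was above 0 for 18 of 32 in experiment 1 and 26 of 32 in experiment 2, against 50.2% and 51.7% of all genes. The 26 became 21 without replicate 1 labelled myb67 of experiment 2 and 28 without WT replicate 1 of that experiment. Medians in experiment 2 were 0.08 for the 32 genes, 0.16 for 4 phloem markers and 0.10 for 4 cambium markers. For 5 endodermis and phellem markers the median there was -0.23. The 95% interval of limma-voom lay within 1.5-fold in either direction for 31 of the 32 genes over both experiments and for 88.7% of all genes. The exception was MYB85.

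MYB85 (AT4G22680), an activator of lignin genes, was the gene nearest to the threshold. In experiment 1 it ran from 1.02 to 2.98 CPM in WT (median 1.93) and from 0.248 to 2.14 in the libraries labelled myb67 (median 1.13). In experiment 2 the WT libraries held 3.83, 4.57, 3.52, 2.76 and 2.27 CPM and those labelled myb67 held 2.44, 2.20, 2.12, 2.09 and 2.56. In experiment 2 the libraries labelled myb67 at 2.20, 2.12 and 2.09 CPM lay below the lowest WT library, at 2.27. Those at 2.44 and 2.56 lay within the WT range, and the groups overlapped in both experiments. The log2 fold change was -0.77 over both experiments (edgeR adjusted p = 0.0619, limma-voom 95% interval -1.14 to -0.31), -1.12 in experiment 1 (adjusted p = 0.181) and -0.57 in experiment 2 (adjusted p = 0.509). Counts behind it were 3 to 135 per library. Over 30 alternatives the edgeR, DESeq2 or limma-voom adjusted p for both experiments ran from 0.00981 to 0.158, and it passed under DESeq2 (0.00981) and without WT replicate 6 of experiment 1 (0.0395), myb67 replicate 4 of experiment 1 (0.0380) or WT replicate 5 of experiment 2 (0.0310). In the authors' deposited table MYB85 has a log2 fold change of -0.78 with a standard error of 0.202 and an adjusted p of 0.00987, the only one of the 33 genes with an adjusted p there that is under 0.05, against 1.58% of all genes.

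The master switches of vessel formation gave intervals that spanned 0. VND6 (AT5G62380) ran from 2.29 to 3.81 CPM in WT of experiment 1 (median 2.92) and from 1.41 to 5.07 in libraries labelled myb67 (median 2.79). Its WT libraries of experiment 2 held 6.49, 7.11, 4.53, 3.20 and 4.07 CPM against 6.88, 4.88, 3.93, 5.69 and 5.81. The ranges overlapped, and over both experiments the log2 fold change stood at 0.06 (edgeR adjusted p = 1, 95% interval -0.25 to 0.41). VND7 (AT1G71930) ran from 1.90 to 3.20 CPM in WT (median 2.77) and from 1.95 to 3.98 in libraries labelled myb67 (median 2.75) of experiment 1. In experiment 2 the values were 4.59, 4.74, 2.89, 1.93 and 3.46 CPM in WT and 6.18, 4.68, 3.43, 3.42 and 3.55 in libraries labelled myb67. Replicate 1 labelled myb67 was the highest of the 10, the others overlapped with WT, and over both experiments the log2 fold change stood at 0.17 (adjusted p = 1, interval -0.14 to 0.54).

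MYB46 (AT5G12870) and MYB83 (AT3G08500), the paired second-tier switches, were likewise not called. MYB46 ran from 2.61 to 6.47 CPM in WT (median 3.76) and from 2.92 to 5.66 in libraries labelled myb67 (median 4.28) of experiment 1, and held 6.72, 5.55, 5.82, 4.80 and 4.38 against 4.96, 6.18, 3.30, 6.17 and 6.22 CPM in experiment 2. The ranges overlapped, with a log2 fold change over both experiments of 0.07 (edgeR adjusted p = 1, 95% interval -0.22 to 0.30). MYB83 ran from 1.29 to 2.67 CPM in WT (median 1.99) and from 0.991 to 2.34 in libraries labelled myb67 (median 1.70) of experiment 1. Its values in experiment 2 were 2.62, 2.64, 1.95, 2.03 and 1.69 CPM against 2.37, 1.59, 1.78, 2.45 and 2.83, again overlapping. The log2 fold change was -0.08 (adjusted p = 1, interval -0.36 to 0.23).

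Of the further regulators, SND2 (AT4G28500), a NAC factor downstream of the switches, and MYB63 (AT1G79180) had the smallest unadjusted p in experiment 2 beside MYB85. SND2 held 4.95, 4.40, 5.09, 5.12 and 4.76 CPM in WT and 6.22, 6.34, 6.26, 3.99 and 7.01 in libraries labelled myb67, where 4 of 5 lay above all WT libraries and 1 below. Its log2 fold change in experiment 2 was 0.29 (edgeR adjusted p = 0.475, 95% interval 0.01 to 0.49), and in experiment 1, with 3.08 to 4.57 CPM in WT (median 3.82) and 2.95 to 4.09 in libraries labelled myb67 (median 3.37), it was -0.05 (adjusted p = 1). MYB63 held 22.8, 22.7, 25.4, 20.7 and 26.1 CPM in WT and 20.9, 26.3, 29, 28.0 and 33.0 in libraries labelled myb67 of experiment 2. Its log2 fold change was 0.22 there (adjusted p = 0.498) and -0.10 in experiment 1 (adjusted p = 0.884), where WT ran from 11.5 to 12.4 CPM (median 12.1) and libraries labelled myb67 from 9.49 to 13.6 (median 11.1). The difference between the experiments was 0.33 and did not pass (adjusted p = 0.524). The remaining regulators were KNAT7, the vessel factors VND4 and VND5, XND1, which restrains xylem differentiation, and the MYB factors MYB58 and MYB103. Their log2 fold changes over both experiments ran from -0.02 (VND4, edgeR adjusted p = 1, 95% interval -0.17 to 0.17) to 0.16 (VND5, adjusted p = 0.970, interval -0.03 to 0.42). KNAT7, at 51 ± 1.69 CPM in WT and 50.5 ± 4.37 in libraries labelled myb67 of experiment 1 (n = 6), had the narrowest interval of the regulators, -0.05 to 0.14. No NAC factor of the 6 tested and no MYB or homeobox factor of the 7 passed with edgeR in any comparison, while DESeq2 called MYB85 over both experiments.

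**Figure D2:**
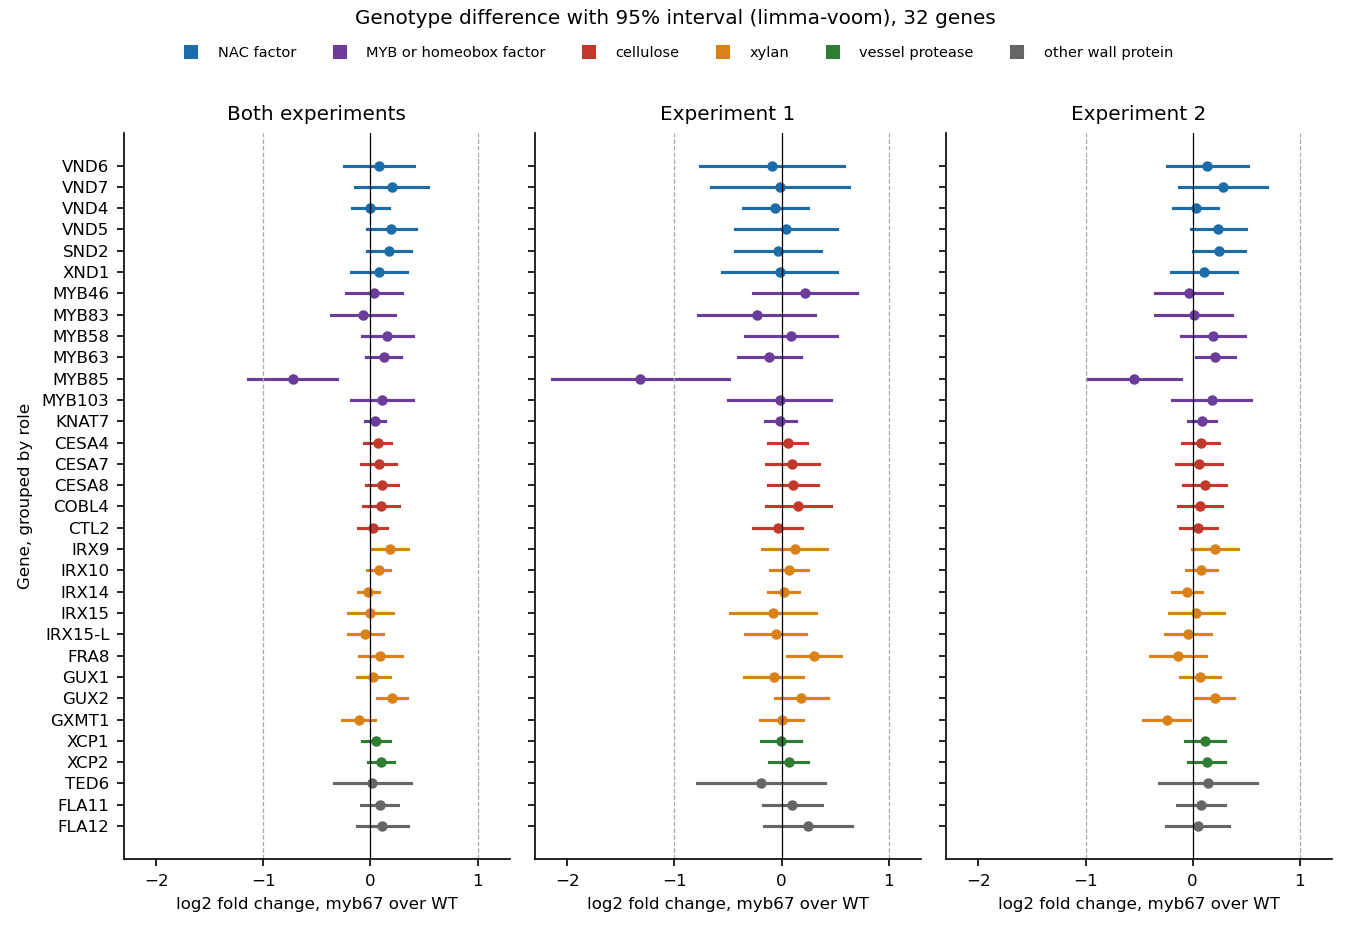
Log2 fold change of libraries labelled myb67 over WT with its 95% interval from limma-voom for the 32 genes, over both experiments and in each, with dashed lines at a 2-fold change. MYB85 is the gene whose interval leaves the range of 1.5-fold over both experiments, and the intervals of the wall synthesis genes are narrower than those of most regulators.

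The cellulose genes stayed within narrow intervals. CESA4 (AT5G44030) ran from 66.8 to 76.5 CPM in WT (median 72.2) and from 62.5 to 81.6 in libraries labelled myb67 (median 76.2) of experiment 1. The WT libraries of experiment 2 held 82.8, 76.0, 80.1, 72.3 and 67.5 CPM, and those labelled myb67 held 91.0, 76.5, 64.6, 74.6 and 95.2. The libraries labelled myb67 were spread more widely than WT and overlapped it, and over both experiments the log2 fold change stood at 0.07 (edgeR adjusted p = 0.985, 95% interval -0.06 to 0.19). CESA7 (AT5G17420) ran from 39.1 to 60.5 CPM in WT (median 43.6) and from 34.4 to 52.4 in libraries labelled myb67 (median 49.5) of experiment 1. In experiment 2 it held 72.4, 68.7, 71.6, 63.6 and 60.1 against 80.6, 60.3, 58.9, 69.3 and 84.0 CPM. The ranges overlapped, with a log2 fold change of 0.07 (adjusted p = 1, interval -0.08 to 0.24).

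CESA8 (AT4G18780) ran from 36.5 to 45.2 CPM in WT (median 40.8) and from 37.8 to 53.2 in libraries labelled myb67 (median 42.3) of experiment 1, and held 60.1, 56.2, 55.4, 51.2 and 45.7 against 66.0, 51.2, 47.7, 56.7 and 71.0 CPM in experiment 2. Its log2 fold change over both experiments was 0.12 (edgeR adjusted p = 0.878, 95% interval -0.04 to 0.26). With COBL4, a COBRA-like protein of secondary wall cellulose, and CTL2, all 5 cellulose genes had a fold change above 0 over both experiments, from 0.01 to 0.13 on the log2 scale, and none passed.

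**Figure D3:**
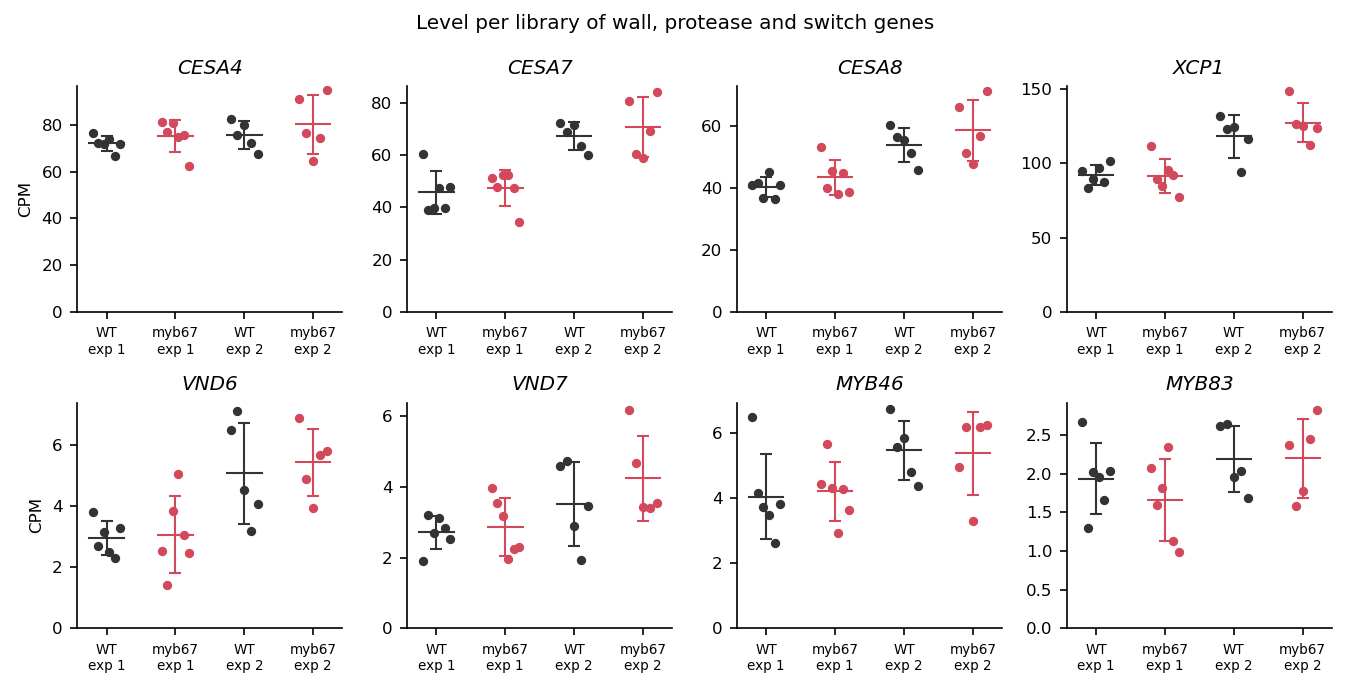
CPM in every library of 3 cellulose synthases, 1 protease and 4 switch genes, by genotype and experiment, with horizontal lines at the mean and bars of 1 SD. WT and myb67 points overlap in every panel. The WT mean of every gene shown is higher in experiment 2, from 1.05 times for CESA4 to 1.72 times for VND6.

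Of the 9 xylan genes, none passed with edgeR in any of the 4 comparisons without a replicate block. GUX2 (AT4G33330), which adds glucuronic acid to xylan, ran from 13.4 to 18.7 CPM in WT (median 16.9) and from 16.5 to 20.4 in libraries labelled myb67 (median 19.7) of experiment 1, and held 27.4, 23.0, 23.5, 19.4 and 18.9 against 25.3, 26.6, 22.9, 27.7 and 25.8 CPM in experiment 2. In experiment 1, 4 of the 6 libraries labelled myb67 lay above all WT libraries, and in experiment 2 the groups overlapped more widely. The log2 fold change was 0.19 over both experiments (edgeR unadjusted p = 0.0101, adjusted p = 0.317, 95% interval 0.06 to 0.34), 0.18 in experiment 1 and 0.20 in experiment 2. IRX9 (AT2G37090), a glycosyltransferase of xylan backbone elongation, ran from 9.90 to 17 CPM in WT (median 13.6) and from 14.2 to 16.5 in libraries labelled myb67 (median 15.6) of experiment 1, where the latter were the less spread. It held 21.8, 18.7, 15.9, 17.3 and 14.7 against 25, 20.7, 16.3, 18.2 and 22.2 CPM in experiment 2, with a log2 fold change over both experiments of 0.18 (adjusted p = 0.628, interval 0.00 to 0.35).

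The xylan backbone genes IRX10 and IRX14, the genes IRX15 and IRX15-L, which affect xylan chain length, and GUX1, a partner of GUX2 in adding side chains, had log2 fold changes from -0.04 (IRX15-L) to 0.05 (IRX10) over both experiments. IRX14 stood at 55.8 ± 5.09 CPM in WT and 56.7 ± 7.26 in libraries labelled myb67 of experiment 1 (n = 6), and at 40.1 ± 1.06 and 38.7 ± 2.51 in experiment 2 (n = 5). All 5 intervals lay between -0.21 and 0.21, the bounds of IRX15.

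FRA8 (AT2G28110) had fold changes of opposite sign in the 2 experiments. In experiment 1 it ran from 59.1 to 91.4 CPM in WT (median 65.4) and from 68.9 to 93.0 in libraries labelled myb67 (median 85.6), and in experiment 2 it held 31.3, 42.2, 30.2, 39.3 and 43.5 CPM in WT and 26.0, 39.0, 28.9, 35.1 and 40.8 in libraries labelled myb67. WT replicate 1, at 91.4 CPM, overlapped the myb67 range of experiment 1, and each library labelled myb67 of experiment 2 lay below the WT library of the same number. The log2 fold change was 0.29 in experiment 1 (edgeR adjusted p = 0.494) and -0.13 in experiment 2 (adjusted p = 0.976). The difference between them, -0.42, did not pass (unadjusted p = 0.0292, adjusted p = 0.509, 95% interval -0.80 to -0.08).

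GXMT1 (AT1G33800) was singled out after its values were seen, because replicate pairing changed its call. In experiment 2 it held 22.7, 27.3, 19.6, 26.0 and 21.8 CPM in WT and 20.3, 24.8, 14.3, 21.8 and 18.7 in libraries labelled myb67, so that every library labelled myb67 lay below the WT library of its number while the groups overlapped. The log2 fold change in experiment 2 was -0.23 (edgeR adjusted p = 0.565). With the replicate number as a block it was -0.24 and passed (adjusted p = 0.0487, and 0.0287 with the block in experiment 2 only). Under either block it was the only gene of the 32 called in experiment 2, against 4.52% and 4.84% of all genes. In experiment 1 GXMT1 ran from 56.7 to 66.5 CPM in WT (median 61.0) and from 56.2 to 70.0 in libraries labelled myb67 (median 62.0), with a log2 fold change of -0.00 (adjusted p = 1, interval -0.20 to 0.20). The difference between the experiments was -0.23 (adjusted p = 0.677).

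The vessel proteases, highest in level, were not called in any comparison. XCP1 ran from 83.3 to 101 CPM in WT (median 92.1) and from 77.2 to 111 in libraries labelled myb67 (median 90.8) of experiment 1, and held 132, 123, 124, 94.1 and 117 against 148, 127, 125, 113 and 124 CPM in experiment 2. Its log2 fold change over both experiments was 0.05 (edgeR adjusted p = 1, 95% interval -0.08 to 0.19). XCP2 ran from 70.4 to 78.8 CPM in WT (median 72.4) and from 62.4 to 95.1 in libraries labelled myb67 (median 75.5) of experiment 1, and held 113, 111, 111, 86.5 and 109 against 132, 111, 116, 107 and 114 CPM in experiment 2. The groups overlapped, with a log2 fold change of 0.10 (adjusted p = 0.860, interval -0.02 to 0.22). The 3 other wall proteins, FLA11, its relative FLA12 and TED6, a membrane protein of differentiating vessels, had log2 fold changes from -0.03 to 0.09 over both experiments, and none passed. TED6 had the widest interval of the 3, -0.34 to 0.38, with 16.7 ± 6.14 CPM in WT and 17.9 ± 5.22 in libraries labelled myb67 of experiment 2 (n = 5).

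Regulators and wall synthesis genes were compared in the width of their intervals as well as in their fold changes. Over both experiments 10 of 13 regulators and 11 of 14 wall synthesis genes had a fold change above 0, with medians of 0.07 and 0.06 on the log2 scale. The median distance from the centre of the interval to its bound was 0.26 for regulators and 0.15 for wall synthesis genes. In WT of experiment 1 the median coefficient of variation between libraries was 23.5% for regulators and 9.41% for wall synthesis genes, beside counts of 2 to 959.5 and 12 to 1286.5 per library. The other groups lay closer, with 21.6% and 12.9% in libraries labelled myb67 of experiment 1. In experiment 2 the medians were 18.7% and 12.2% in WT and 19.3% and 14.0% in libraries labelled myb67. The difference in spread was not tested apart from the difference in counts.

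In a further list of 15 secondary wall regulators, chosen like the other lists with earlier results of these data known, 14 were tested. Over both experiments 1 fell and 1 rose, against 0.687% of all genes that fell and 0.816% that rose. SND3 (AT1G28470), a NAC factor downstream of the fibre switches, ran from 19.0 to 22.5 CPM in WT (median 20.8) and from 13.8 to 15.9 in libraries labelled myb67 (median 14.8) of experiment 1, and held 19.0, 24.1, 22.6, 18.1 and 18.2 against 15.7, 16, 15.0, 12.9 and 14.6 CPM in experiment 2. Every library labelled myb67 lay below every WT library of its experiment. SND3 fell by 0.48 on the log2 scale over both experiments (edgeR adjusted p = 6.17e-06, 95% interval -0.60 to -0.36), with -0.50 in experiment 1 (adjusted p = 0.00142) and -0.46 in experiment 2 (adjusted p = 0.00165). It passed in all 30 alternatives, with an adjusted p of at most 4.55e-05.

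LBD15 (AT2G40470), a LOB domain factor linked to vessel differentiation, held 6.19, 6.43, 5.79, 5.20 and 5.49 CPM in WT and 13.2, 8.42, 13.1, 8.20 and 10.9 in libraries labelled myb67 of experiment 2, where the groups did not overlap. In experiment 1 it ran from 3.05 to 4.46 CPM in WT (median 3.73) and from 4.02 to 6.35 in libraries labelled myb67 (median 4.69), and the groups overlapped. LBD15 rose by 0.64 on the log2 scale over both experiments (edgeR adjusted p = 0.00111) and by 0.88 in experiment 2 (adjusted p = 0.000175), and its value in experiment 1 was 0.31 (adjusted p = 0.575). The difference between the experiments, 0.57, did not pass (adjusted p = 0.411). MYB52 (AT1G17950), a MYB factor of the same network, rose in experiment 2 by 0.42 (edgeR adjusted p = 0.0479). It held 12.2, 13.3, 11.6, 10.2 and 8.91 CPM in WT there and 16.9, 14.7, 15.4, 14.4 and 14.2 in libraries labelled myb67, without overlap. That call was lost in 18 of 30 alternatives, over which the adjusted p ran from 0.00681 to 0.186. Over both experiments the log2 fold change of MYB52 was 0.31 (edgeR adjusted p = 0.0557), and it passed in 10 of 30 alternatives. In experiment 1 it was 0.18 (adjusted p = 0.735). The authors' deposited table gives MYB52 a log2 fold change of 0.31 and an adjusted p of 0.0119.

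Of 21 further genes of wall synthesis and vessels, and of the 5 primary wall cellulose synthases, 0 passed with edgeR over both experiments, with 4 and 0 at an unadjusted p under 0.05, against 7.31% of all genes. Medians of their log2 fold changes were 0.04 and -0.01. None of 4 phloem and 4 cambium markers passed, with 0 at an unadjusted p under 0.05, and 2 of 5 endodermis and phellem markers rose, against 0.816% of all genes. These were the suberin genes GPAT5, by 0.35 (edgeR adjusted p = 0.00596), and CYP86A1, by 0.36 (adjusted p = 0.00727). The other markers did not pass, among them ESB1, a gene of the Casparian strip, with log2 fold changes of -0.02 over both experiments and -0.23 in experiment 2. The median of the 5 markers was -0.02 over both experiments and -0.23 in experiment 2.

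**Figure D4:**
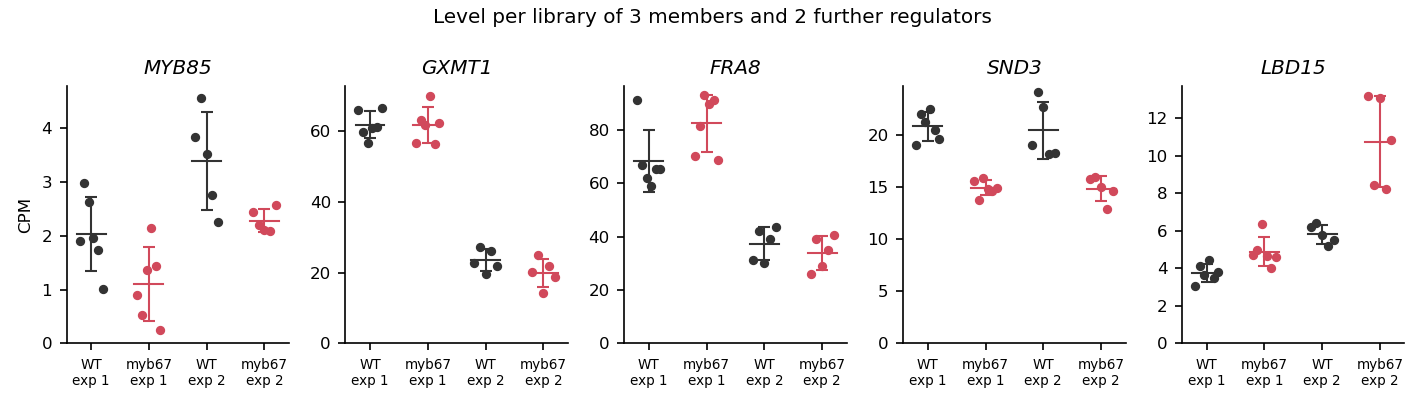
CPM in every library of the members MYB85, GXMT1 and FRA8 and of SND3 and LBD15, by genotype and experiment, with horizontal lines at the mean and bars of 1 SD. WT and myb67 points of SND3 are apart in both experiments and those of LBD15 in experiment 2, while those of MYB85, GXMT1 and FRA8 overlap.

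The genes were then compared in how they varied between libraries of the same group, which the genotype does not enter. For each gene the deviation of log2 CPM from its group mean was correlated with that of CESA7 over 22 libraries, giving 31 relations. Permutations within groups, 100000 in number, gave p-values that were adjusted over all 21682 other genes tested. No gene passed at an adjusted p under 0.05, and the smallest p that the permutations can give is 1e-05. CESA4 and FLA12 reached that smallest p, so their adjusted p of 0.0516 depends on the number of permutations. Whether they would pass with more permutations was not tested. At an unadjusted p under 0.05, 15 of the 31 genes were positively correlated and 0 negatively, against 9.01% and 9.19% of all genes. The permutations treat libraries as independent, although same-numbered libraries of experiment 2 shared deviations (r across genes of 0.285 to 0.671). Over differences of same-numbered libraries, the replicate block, r with CESA7 was 0.81 for CESA4, 0.74 for MYB83 and 0.52 for CESA8. Of all genes, 6.76% were then positive at an unadjusted p under 0.05.

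The wall synthesis genes had higher correlations with CESA7 than most regulators, though the difference between the classes was not tested. CESA7 is itself a wall synthesis gene. Regulators also had lower levels, with a median of 2.81 CPM against 23.2 for wall synthesis genes in WT of experiment 1. The part of the reference and of the levels in the class difference was not tested. The median Pearson r was 0.60 over 13 wall synthesis genes, 0.25 over 13 regulators and -0.04 over all genes. CESA4 was closest, with r of 0.82 and Spearman rho of 0.84 (adjusted permutation p = 0.0516), and r of 0.82 in experiment 1 and 0.93 in experiment 2. Among the wall-associated proteins FLA12 had r of 0.80 and rho of 0.78. CESA8 reached 0.64 and 0.65, with 0.41 in experiment 1 and 0.98 in experiment 2.

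MYB83 had the highest r of the regulators with CESA7, though not with CESA8. Its r with CESA7 was 0.81 and its rho 0.82 (adjusted permutation p = 0.0516), with r of 0.81 in experiment 1 and 0.82 in experiment 2. VND5 also had r of 0.82 in experiment 2, but 0.11 in experiment 1 and 0.28 over all libraries. MYB46 had r of 0.51 and rho of 0.42 (adjusted permutation p = 0.240), VND6 had 0.49 and 0.63 (adjusted p = 0.203), and VND7 had 0.05 and 0.12 (adjusted p = 0.941). MYB58, an activator of lignin genes, had the lowest r, -0.45, with -0.70 in experiment 1 and 0.23 in experiment 2, and it did not pass (adjusted permutation p = 0.310). With CESA8 as the reference in place of CESA7, r was 0.46 for MYB83, 0.49 for KNAT7, 0.47 for MYB46 and 0.83 for CESA4, with medians of 0.46 for wall synthesis genes and 0.23 for regulators, and 0 of 31 genes passed. Over pairs of these genes the median r was 0.32 for 91 pairs of wall synthesis genes, 0.17 for 182 pairs of a regulator and a wall synthesis gene, and 0.09 for 78 pairs of regulators.

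CESA7 deviated most in WT replicate 1 and in replicate 6 labelled myb67 of experiment 1. Without these 2 libraries r was 0.83 for CESA4, 0.71 for MYB83, 0.58 for FLA12 and 0.30 for MYB46, and that of MYB58 moved to -0.13. Other genes rose, with r going from 0.28 to 0.56 for VND5, from -0.13 to 0.50 for XND1 and from 0.11 to 0.51 for IRX9. The median r was then 0.51 for wall synthesis genes and 0.24 for regulators. Within experiments the medians were 0.59 and 0.11 in experiment 1, and 0.62 and 0.48 in experiment 2. In experiment 1 alone 5 of the 31 passed positively (1.55% of all genes). In experiment 2 alone none did, with 14 at an unadjusted p under 0.05 (2.23% of all genes positive). With the fewer libraries of experiment 2, the permutation p of CESA7 with itself was 7.0e-05, and none can be lower there. Counts of passing genes are therefore not comparable between the experiments.

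**Figure D5:**
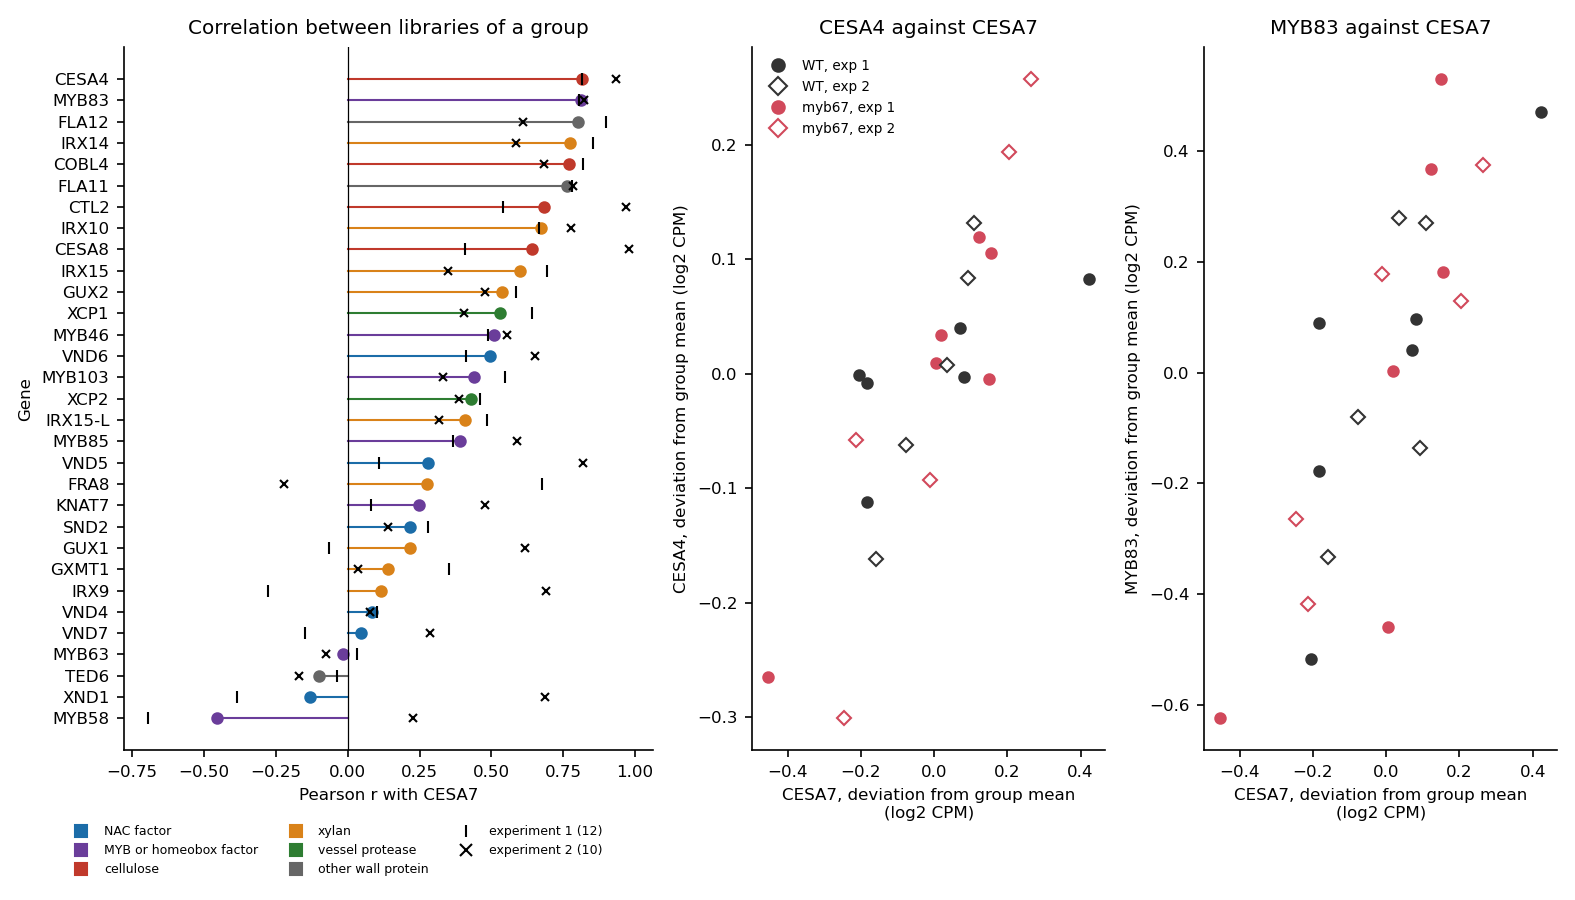
Left, Pearson r with CESA7 of the deviations from group means for 31 genes over 22 libraries, with bars for experiment 1 (12 libraries) and crosses for experiment 2 (10); middle and right, deviations of CESA4 and MYB83 against those of CESA7 in log2 CPM, 1 point per library. Cellulose, xylan and FLA genes fill most of the upper rows, and MYB83 is the regulator among them with r of 0.81.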

How the data were processed

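mRNA sequencing libraries of WT and myb67 upper roots were compared within and across 2 experiments. In experiment 1 the authors deposited expected counts per gene in steps of 0.5, rounded here to whole numbers, and in experiment 2 raw counts, both without normalization. A second table that the authors deposited compares the genotypes, with log2 fold changes and standard errors, adjusted p-values and, as signal, the mean scaled count. Per the submitters' processing notes, the build was TAIR10 and the tools were STAR 2.7.10a, Trimmomatic 0.39, FastQC, DESeq2 1.40.1 and HOMER. Nothing in the sources used here states how strand, read pairs or multi-mapping reads were treated.

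Genes were kept by filterByExpr and scaled by TMM. Genotype was tested with edgeR 4.0.16 (quasi-likelihood, R 4.3.3) with the experiment as a term, and per experiment from the 4 group means, with Benjamini-Hochberg adjustment over 21683 genes. All p-values reflect the spread between pooled-seedling replicates. Intervals come from limma-voom (limma 3.58.1), added after the data were seen together with CESA8 as reference and other groups for levels. Other alternatives were DESeq2 1.42.0, RLE scaling, no filter, a replicate block, and leaving out libraries. Tests were checked on simulated data. Correlations were planned with adjustment over the members and were adjusted over all genes instead (Python 3.11.15, numpy 2.4.6). Correlations used log2 CPM with a prior count of 2.

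RefSeq TAIR10.1, a later release than the authors' build, gave names, exon lengths, overlaps and upstream sequence. No pair of replicates was a duplicate (chi-square per gene of at least 2.08 in 50 pairs). Replicate numbers paired the libraries in experiment 2, where deviations of same-numbered libraries correlated across genes at 0.285 to 0.671, but not in experiment 1 (-0.158 to 0.0430). The members and lists were chosen with earlier results of these data known. Full values were given for CESA4, CESA7, CESA8, IRX9, VND6, VND7, MYB46, MYB83, XCP1 and XCP2, for any member called, for the 3 members of smallest p in each contrast, and for up to 4 called genes of each other list. GXMT1 was added after its values were seen.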

Additional observations from a re-analysis of the deposited data

Results flagged for a closer look

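Among 38 genes in 4 groups each, 152 groups in all, 8 held a library that stood apart from the rest of its group, where chance would give about 7.6 (1 group in 20). In the libraries labelled myb67 of experiment 1, replicate 6 was low for CESA4, with 62.5 CPM against 74.9 to 81.6, and for CESA7, with 34.4 CPM against 47.2 to 52.4. WT replicate 1 of experiment 1, the library of fewest counts, was high for FRA8, with 91.4 CPM against 59.1 to 67.0, and for MYB103, with 3.05 CPM against 1.68 to 2.16. In experiment 2, WT replicate 4 was low for XCP2, with 86.5 CPM against 109 to 113. Replicate 4 labelled myb67 was low for SND2, with 3.99 CPM against 6.22 to 7.01, and for IRX15, with 4.39 CPM against 5.90 to 6.41. Replicate 1 labelled myb67 was high for FLA12, with 14.7 CPM against 12.1 to 12.7.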

How the results depend on the processing

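Of 2640 single-gene values under alternatives, 2586 kept their side of the threshold, 35 lost a call, 18 gained one and 1 called value reversed. Of those 2586, 94 had another sign than the main value, none of them called in either. The called value that reversed was that of LHCB1.1, a photosynthesis gene, at -5.20 in experiment 1 and 0.045 without WT replicates 3 and 6 of experiment 1, the libraries that carried its counts. The count of 0 members called over both experiments became 1 under DESeq2 and ranged from 0 to 1 when each library was left out. With the replicate block, which only experiment 2 supports, 1 member, GXMT1, was called in experiment 2, and likewise 1 with the block in experiment 2 only, while no other member's call changed. The count of members correlated with CESA7, 0 over all libraries, became 5 in experiment 1 alone and ranged from 0 to 5 when each library was left out. The cause was not tested. The best adjusted p over all libraries, 0.0516, lay just above the threshold and depends on the number of permutations. The ratio of wall synthesis genes to regulators stayed within 1.5 times, with 8.28 without length. Over all genes, the 288 calls in experiment 2 became 980 with the replicate block, 1050 with the block in experiment 2 only and 509 without WT replicate 1 of that experiment. The 135 calls in experiment 1 became 272 with DESeq2, 231 and 280 with the blocks and 81 without WT replicates 3 and 6, and the 15 for the difference between experiments ran from 6 to 573. Members at an unadjusted p under 0.05 numbered 2 to 5 over both experiments, 1 to 3 in experiment 1, 0 to 5 in experiment 2 and 0 to 3 for the difference when each library was left out. The 0 in experiment 2, in place of 4, came without its WT replicate 2. The 15 members positively correlated with CESA7 at an unadjusted p under 0.05 became 8 with the replicate block and 11 with CESA8 as reference. The shares of all genes positive at that threshold were 9.01%, 6.76% and 2.08% in the same order. Low counts, as few as 2 per library, limit the regulators most, above all in experiment 1, whose libraries are shallower than those of experiment 2.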
